A study of Rattus norvegicus with 16 samples.

Results

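Rat neural stem cells in hyaluronic acid hydrogels held 154 transcripts, of 41078 in the count table, that were more abundant in stiff than in soft gels at 12 h. Each met 4 conditions, all on CPM, the count as a share of the library's total, scaled to a common total for all libraries. All 4 stiff libraries at 12 h exceeded all 4 soft ones. The mean of the stiff libraries at 12 h was at least 5 CPM. The log2 ratio of stiff to soft means, each with 1 CPM added, was at least 0.8. The log2 ratio of the mean over 8 libraries at 48 h to the mean over 8 at 12 h, again with 1 CPM added, lay above -2 and below 1.5. The excess in stiff gels at 12 h was therefore what chose these transcripts, and it is given as a description from which nothing is read.

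The series holds 16 libraries of 3′ tag sequencing, which reads each transcript near its 3′ end, in 8 groups of 2. All 8 groups were cultured inside hyaluronic acid gels in the same mixed differentiation medium, which held retinoic acid at 1 μM and fetal bovine serum at 1%. The gels were soft (100 Pa) or stiff (1.2 kPa), were without or with RGD, and were sampled at 12 h or at 48 h. The design text gives its purpose as finding genes that depend on stiffness. The labels name the cells adult hippocampal neural progenitor cells of the rat, and give no strain, age or number of cell lines. No ungelled or untreated culture serves as a control, so soft gels are the reference for stiffness and gels without RGD the reference for the peptide. Nothing in the labels tells whether the libraries of a group came from separate cultures, so the p-values below measure the spread between these libraries, which may be technical.

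Adult hippocampal neural stem cells divide in the dentate gyrus and can give rise to neurons, astrocytes and oligodendrocytes. Cells read the stiffness of their surroundings mainly through integrins, receptors that bind matrix peptides such as RGD and couple them to actin and myosin. The resulting tension acts on gene regulation through factors that include YAP and the serum response factor, and hyaluronic acid itself is bound by CD44. The identifiers in the table are versioned Ensembl transcripts, and 0 of the 41078 could be paired with a gene symbol in the reference used here. Roles, positions and sequences of the 154 are therefore not given, and the labelled cell type could not be checked against marker genes. Where a gene has several transcripts, these can share reads, so a value for a single transcript is uncertain by the way such reads were counted.

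Library totals ran from 1829779 to 2157015 counts in soft gels at 12 h and from 2294844 to 3420786 in stiff gels at 12 h. At 48 h they ran from 2403144 to 2816114 in soft and from 2035890 to 2926954 in stiff gels. The 2 most abundant transcripts took between 50.8% and 55.2% of the counts in soft gels at 12 h and between 45.6% and 51.9% in stiff gels at 12 h. In stiff gels, replicate 2 without RGD (49.2%) and replicate 1 with RGD (45.6%) lay under every soft library. There the remaining transcripts shared more of the total, while the other stiff libraries lay within the soft range. The median log2 ratio of stiff to soft over all 7876 tested transcripts was 0.13 on the scale of column totals. With TMM factors, which set the bulk of transcripts to no change, that median was -0.01. The excesses of the 154 on column totals are to be read against the shift of 0.13, whose part in the choice of members is given below as a second count.

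At 12 h, 806 transcripts had all 4 stiff libraries above all 4 soft ones, and 703 of these had a stiff mean of at least 5 CPM. The ratio minimum left 166, the lower bound on time took away 8 and the upper bound 4. Among the 7876 transcripts tested, 9.36% had stiff libraries wholly above soft ones at 12 h. Many transcripts lay close to the ratio minimum, with 58 within 0.1 above it and 71 within 0.1 below it. Just inside were ENSRNOT00000014860.6 at 0.8001 (soft mean 28.0, stiff mean 49.5 CPM), ENSRNOT00000044565.5 at 0.8012 and ENSRNOT00000012195.5 at 0.8029. Just outside were ENSRNOT00000078559.1 at 0.7988 (5.68 and 10.6 CPM), ENSRNOT00000071152.2 at 0.7959 and ENSRNOT00000031384.5 at 0.7934. The lists on either side of the limit thus differ in the ratio by little.

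The 154 covered a wide range of abundance, with a median near that of all tested transcripts. Their mean over the 16 libraries had a median of 17.6 CPM, with quartiles of 7.49 and 55.1 CPM and a range of 2.54 to 1077 CPM, beside a median of 19.2 CPM over all tested transcripts. Of the 154, 23 averaged at least 100 CPM and 51 averaged under 10 CPM. Their log2 ratio at 12 h had a median of 0.98 with quartiles of 0.86 and 1.16, and the highest was 2.22. The gap between the groups was narrow for many: the lowest stiff value divided by the highest soft value at 12 h had a median of 1.23, reached 1.5 in 19 members and was under 1.1 in 20. All 154 passed the filter on low counts, all had at least 20 counts over the 8 libraries at 48 h, and the smallest sum over the 4 soft libraries at 12 h was 7 counts.

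**Figure D1:**
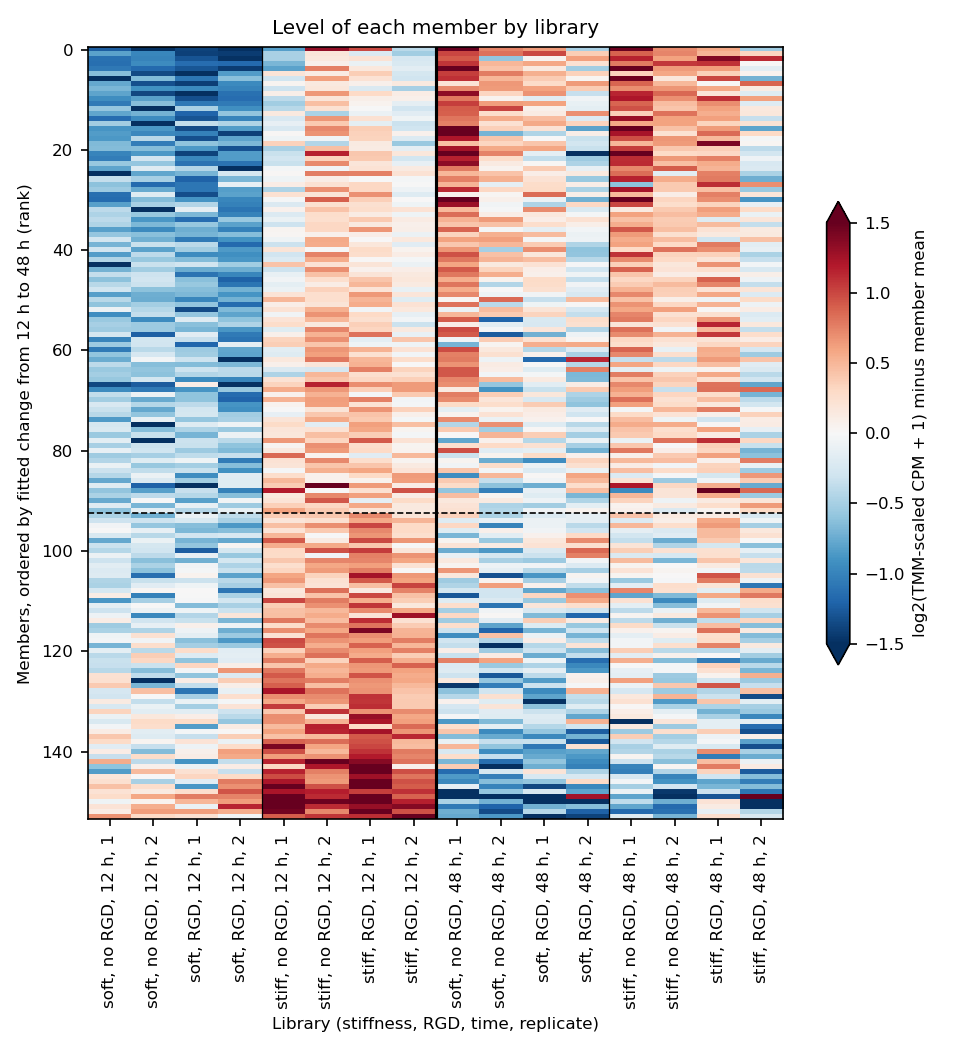
Level of each of the 154 members in each of the 16 libraries, as log2(TMM-scaled CPM + 1) minus the member's mean over the libraries, with red above and blue below that mean and the colour scale ending at 1.5 in either direction. Members are ordered by their fitted change from 12 h to 48 h, and the dashed line separates the 93 fitted higher at 48 h from the 61 fitted lower. The 4 soft libraries at 12 h are low for the upper block, and the 4 stiff libraries at 12 h are the highest for the lower block.

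The 4 stiff libraries at 12 h carried unequal amounts of the excess. With TMM scaling, the mean log2(CPM + 1) of the 154 was 3.98 and 3.94 in soft gels without RGD and 3.90 and 3.90 in soft gels with RGD. It was 4.73 and 4.95 in stiff gels without RGD and 4.99 and 4.70 in stiff gels with RGD. On CPM by column total, replicate 1 of stiff gels with RGD gave the highest stiff value for 84 members and the lowest for 5. Replicate 2 of that group gave the lowest for 66 and the highest for 5. On the same scale, in stiff gels without RGD, replicate 1 gave the lowest value for 60 members and replicate 2 the highest for 51. With TMM scaling, replicate 1 exceeded replicate 2 for 129 of 154 in stiff gels with RGD, where 50.5% of all tested transcripts did. In stiff gels without RGD it did so for 50 of 154, where 48.8% did. In the soft groups at 12 h, replicate 1 lay above replicate 2 for 79 members without RGD, where 49.1% of all tested transcripts did. With RGD it did so for 86, where 50.0% did. The rule used these 12 h libraries, so the shares over all tested transcripts are no fair background. Nothing is read from these counts. Replicate 1 of stiff gels with RGD had the largest TMM factor, 1.18, and the smallest share of counts in the 2 most abundant transcripts, 45.6%; their part in its position was not tested.

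Among members that averaged at least 20 counts at 12 h, the largest ratio belonged to ENSRNOT00000066487.2. In soft gels at 12 h it stood at 8.35 and 4.68 CPM in the absence of RGD, then 3.28 and 5.74 CPM in its presence. In stiff gels at 12 h it stood at 16.1 and 24.9 CPM in the absence of RGD, then 21.6 and 16.1 CPM in its presence. The lowest stiff library lay well above the highest soft one, and the means were 5.51 ± 2.14 and 19.7 ± 4.35 CPM (SD, n = 4). By 48 h its soft libraries, at 36.1, 19.2, 24.9 and 11.2 CPM, covered the range of its stiff ones at 30.2, 29.4, 17.2 and 13.2 CPM.

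The next, ENSRNOT00000018637.6, read 25.5 and 11.2 CPM in soft gels without RGD at 12 h and 8.20 and 11.5 CPM in those with RGD. In stiff gels at 12 h the values were 38.3 and 57.7 CPM in the absence of RGD, then 51.9 and 29.8 CPM in its presence. The groups did not overlap, though soft replicate 1 without RGD came close to the lowest stiff library. At 48 h it stood at 9.11, 7.10, 11.0 and 7.91 CPM in soft and 11.7, 10.9, 23.1 and 15.7 CPM in stiff gels. The lowest stiff value lay just under the highest soft one. Both libraries at 48 h lay under both at 12 h in every group except soft gels with RGD, where the times overlapped. In soft gels at 48 h, the first of these 2 transcripts thus covered the range that its stiff libraries had at 12 h, and the second stood below it.

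In the edgeR quasi-likelihood fit over all libraries, 34 of the 154 had an adjusted p under 0.05 for stiff minus soft at 12 h, where 0.609% of all tested transcripts were called higher. The members were chosen on this contrast, so nothing is read from the count. The median fitted log2 fold change was 0.91, and it was 0.89 in gels without RGD and 1.04 in gels with RGD. All 154 were fitted above 0 in each of these, and the RGD groups were not compared on this contrast. Leaving out replicate 2 of soft gels without RGD, or replicate 1 of stiff gels with RGD, left 0 calls. Leaving out another single 12 h library lowered the number of calls as well. In all these fits the calls among all tested transcripts, both directions together, fell too. Those in the higher direction alone rose without replicate 1 of stiff gels without RGD. The median ran from 0.83 without replicate 1 of stiff gels with RGD to 0.96 without replicate 2 of that group. The smaller fit of the 12 h libraries alone called 105 members, where 278 of 7345 tested transcripts were called higher and 154 lower.

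The choice of members itself depended on the scaling. On TMM-scaled CPM the same rule gave 80 transcripts, of which 79 were among the 154, and 5.78% of all tested transcripts then had stiff wholly above soft libraries at 12 h. Of the 75 members that no longer met it, 69 fell under the ratio minimum, 13 had overlapping groups and 2 fell under the CPM minimum. The median ratio of the 154 became 0.83, the lowest 0.64, and 141 kept stiff libraries wholly above soft ones. Leaving out a single 12 h library gave between 115 transcripts (without replicate 1 of stiff gels with RGD, 100 of them among the 154) and 244 (without replicate 1 of soft gels without RGD, 142 of them among the 154).

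**Figure D2:**
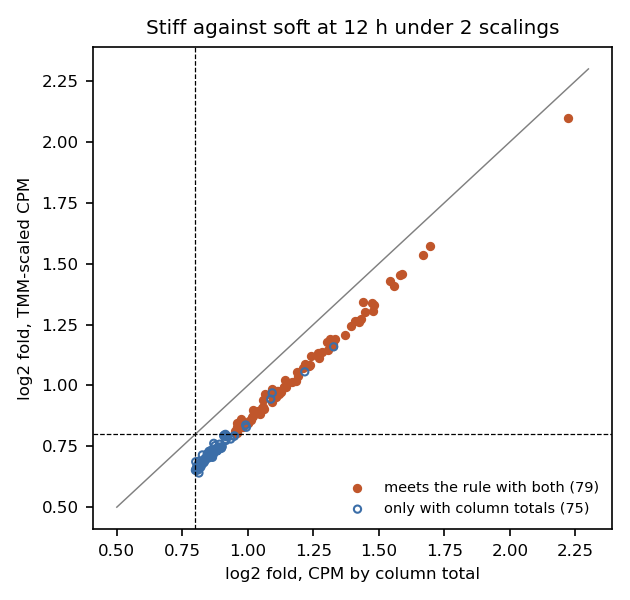
Log2 ratio of stiff to soft at 12 h for each of the 154 members, on CPM by column total (horizontal axis) and on TMM-scaled CPM (vertical axis), with dashed lines at the minimum of 0.8 and a solid line of equality. The 79 filled points meet the rule on both scales and the 75 open points with column totals only; all points lie below the line of equality, and most open points lie close to the minimum.

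Stiffness at 48 h was not used to choose the members, and none of the 154 passed the test there. By edgeR, 0 were called higher and 0 lower, beside 0.00% of all tested transcripts in either direction. DESeq2 and limma-voom also called 0. At an unadjusted p under 0.05, 18 members were higher in stiff gels, where 4.24% of all tested transcripts were, and 1 was lower, where 3.09% were. The count of 18 shifted when 1 library was left out, as did the count over all tested transcripts. The median fitted difference, given below, shifted as well. The fitted difference lay above 0 for 114 of 154 members, beside 50.7% of all tested transcripts, and below 0 for 40, beside 49.3%. Its median was 0.15 on the log2 scale with quartiles of -0.01 and 0.32, beside a median of 0.005 over all tested transcripts.

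The small excess at 48 h depended on single libraries, above all on the stiff libraries with RGD, which differed from each other. Replicate 1 exceeded replicate 2 in that group for 122 of 154 members, with a median log2 difference of 0.57, where 51.7% of all tested transcripts did. Without that replicate 1 the median for stiff minus soft was -0.03 and 72 members lay above 0, and without replicate 2 the median was 0.31. Other libraries moved it by more than 1.5 times as well: it was 0.06 without replicate 2 of soft gels without RGD, 0.09 without replicate 1 of stiff gels without RGD, 0.25 without replicate 1 of soft gels without RGD and 0.24 without replicate 1 of soft gels with RGD. The same tilt toward replicate 1 was seen in the soft gels without RGD (115 members, median 0.42, background 51.1%), the stiff gels without RGD (113 members, median 0.29, background 50.6%) and the soft gels with RGD (91 members, median 0.19, background 50.3%). The mean log2(TMM-scaled CPM + 1) of the 154 at 48 h was 4.69 and 4.30 in soft gels without RGD, 4.30 and 4.24 in soft gels with RGD, 4.76 and 4.50 in stiff gels without RGD and 4.76 and 4.26 in stiff gels with RGD, replicate 1 first. Soft and stiff libraries overlapped, and replicate 1 was the higher in each of the 4 groups.

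**Figure D3:**
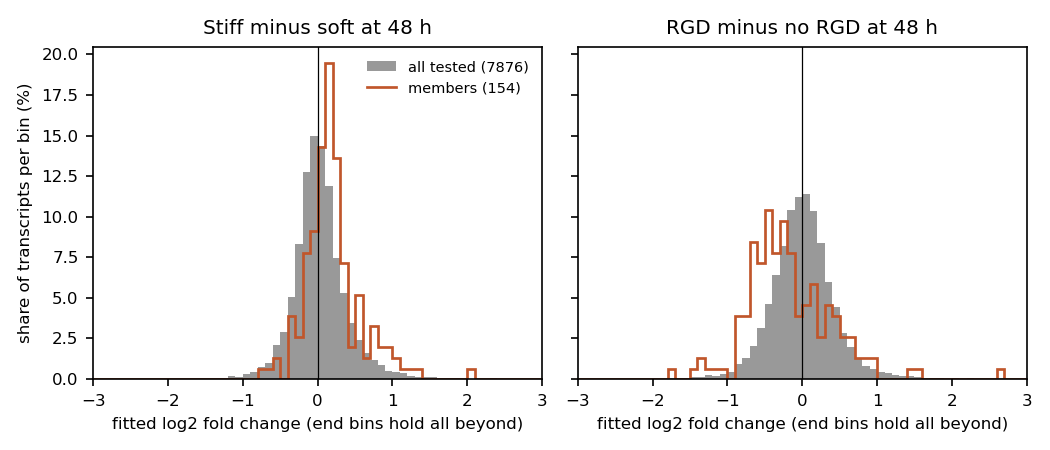
Distribution of fitted log2 fold changes in bins, as the share of transcripts per bin, for stiff minus soft at 48 h (left) and RGD minus no RGD at 48 h (right), with all 7876 tested transcripts in grey and the 154 members as an orange line. The members are shifted to the right of 0 on the left (median 0.15) and to the left of 0 on the right (median -0.26), and neither comparison had a called member.

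A few members kept stiff libraries wholly above soft ones at 48 h. There were 4, where 1.26% of all tested transcripts were, and they are named because the count is small and after their values were seen: ENSRNOT00000056022.3, ENSRNOT00000020005.7, ENSRNOT00000031230.6 and ENSRNOT00000073971.3. ENSRNOT00000073971.3 stood at 48 h at 20.8, 12.1, 17.8 and 22.5 CPM in the soft libraries and at 26.6, 31.1, 51.6 and 32.1 CPM in the stiff ones, with the gels without RGD first in each case. Its lowest stiff library lay above the highest soft one by under 5 CPM, and replicate 1 with RGD was the highest, as it was at 12 h with 90.7 CPM. The fitted log2 fold change at 48 h was 0.92 ± 0.24 (SE) with an adjusted p of 0.351 by edgeR. Over 23 alternative fits, which included each library left out in turn, that fold change ran from 0.71 to 1.18. ENSRNOT00000020005.7 was fitted at 0.84 ± 0.28, with soft libraries at 6.92, 7.10, 6.05 and 7.07 CPM and stiff libraries at 14.5, 8.88, 11.8 and 13.5 CPM. ENSRNOT00000031230.6 was fitted at 1.08 ± 0.40 and lay at 10 counts or fewer in every soft library.

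ENSRNOT00000056022.3 had the highest fitted difference of the 154 at 48 h, on very few counts. It had 3, 3, 0 and 1 counts in soft and 5, 4, 7 and 6 counts in stiff libraries at 48 h. The groups did not overlap by CPM, and the fitted log2 value of 2.05 ± 0.67 (edgeR adjusted p 0.535) depends on the prior count at such depth. The lowest fitted difference was -0.73 ± 0.52 for ENSRNOT00000031172.6 (edgeR adjusted p 0.785), with 15, 15, 8 and 2 counts in soft and 11, 5, 2 and 4 counts in stiff libraries, which overlapped. A single member, ENSRNOT00000017063.6, had stiff libraries wholly below soft ones at 48 h, where 0.990% of all tested transcripts did. Its soft libraries read 16.04, 16.7, 18.1 and 17.5 CPM and its stiff ones 15.3, 11.3, 12.3 and 9.50 CPM at 48 h, a fitted difference of -0.51 ± 0.24 with an edgeR adjusted p of 0.661. Its order had turned: at 12 h its soft mean was 11.6 ± 1.90 and its stiff mean 21.2 ± 4.23 CPM (SD, n = 4), and with TMM scaling its groups at 48 h overlapped.

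The smallest unadjusted p for stiffness at 48 h belonged to an abundant member, ENSRNOT00000026303.4, also named after its values were seen. In soft gels it stood at 336, 325, 243 and 257 CPM at 12 h, then 996, 662, 572 and 592 CPM at 48 h. In stiff gels it stood at 485, 740, 775 and 656 CPM at 12 h, then 1288, 1062, 1338 and 975 CPM at 48 h. It was higher at 48 h in both gels; there the soft mean was 705.5 ± 198 CPM and the stiff mean 1166 ± 175 CPM (SD, n = 4), and the highest soft library, replicate 1 without RGD, lay just above the lowest stiff one. The fitted difference was 0.74 ± 0.17 (SE) with an unadjusted p of 0.000167 and an adjusted p of 0.351 by edgeR. Over 23 alternative fits, which included each library left out in turn, the fitted difference ran from 0.58 to 0.95.

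**Figure D4:**
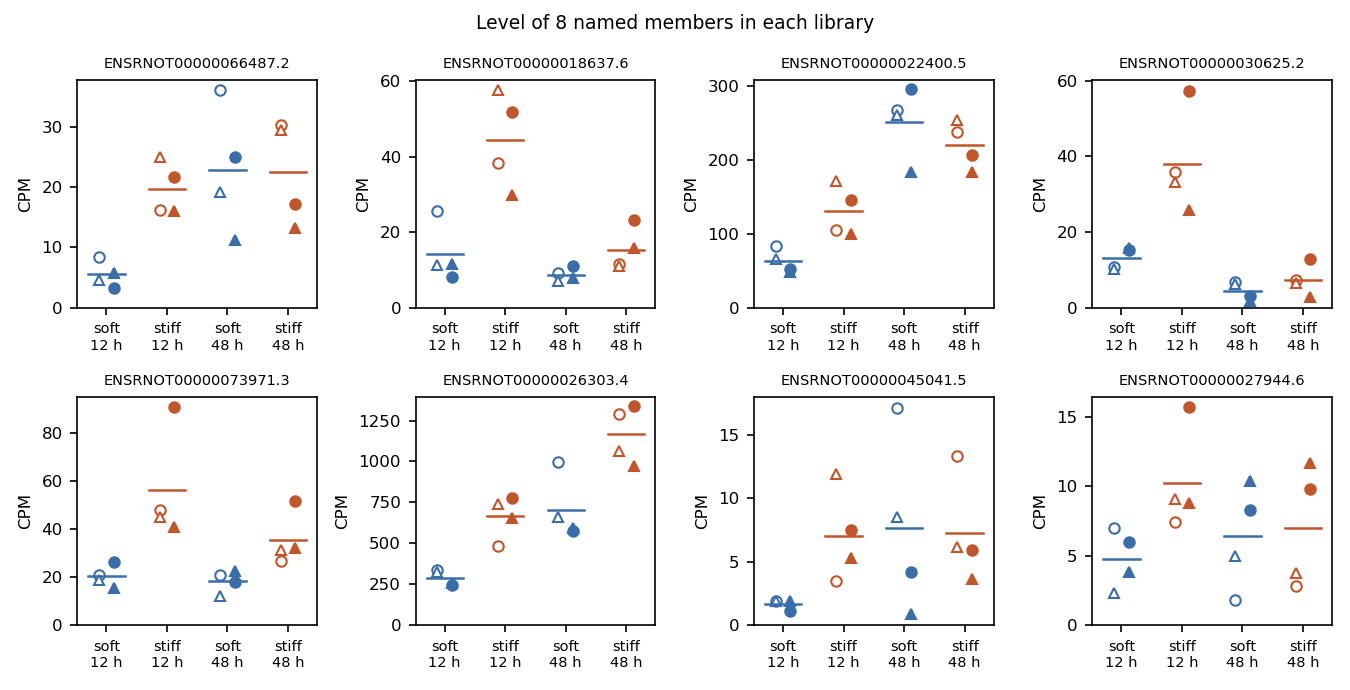
CPM of 8 named members in each library, with soft gels in blue and stiff gels in orange, open symbols without and filled symbols with RGD, circles for replicate 1 and triangles for replicate 2, and a bar at the mean of the 4 libraries. Each panel has its own vertical axis from 0. Stiff libraries lie above soft ones at 12 h in every panel, which the choice of members fixed, while at 48 h ENSRNOT00000073971.3 alone of the 8 has groups that do not overlap.

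The excess in stiff gels at 48 h was compared between gels with and without RGD. The median fitted difference of the 154 was 0.06 without RGD and 0.20 with RGD. With 1 library left out, the first ran from -0.11 (without soft replicate 2) to 0.30 (without soft replicate 1) and the second from -0.08 (without stiff replicate 1) to 0.48 (without stiff replicate 2), so that both changed sign. The interaction, the excess with RGD minus that without, had a median of 0.14, and edgeR, DESeq2 and limma-voom called 0 members, beside 0.00% of all tested transcripts by edgeR in either direction. At an unadjusted p under 0.05, 1 member was higher (background 0.901%) and 1 lower (background 1.05%). The median ran from -0.13 without replicate 1 of soft gels without RGD to 0.42 without replicate 2 of stiff gels with RGD, so its sign rested on single libraries. The lowest fitted interaction was -1.86 ± 0.86 for ENSRNOT00000091711.1, with an edgeR adjusted p of 1.00. It had 5, 5, 9 and 19 counts in soft and 12, 15, 10 and 10 counts in stiff libraries at 48 h, with soft replicate 2 with RGD the highest of all. The highest was again ENSRNOT00000056022.3, whose soft libraries with RGD held 0 and 1 counts.

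RGD is the peptide by which fibronectin and other matrix proteins bind integrins. At 12 h no member passed the test for RGD. By edgeR, 0 were called higher and 0 lower, beside 0.00% of all tested transcripts in either direction, and DESeq2 and limma-voom also called 0. At an unadjusted p under 0.05, 1 member was higher (background 1.31%) and 2 were lower (background 1.85%), and 65 of 154 were fitted above 0 (background 48.5%). The median was -0.06 with quartiles of -0.21 and 0.12, and it ran from -0.15 without replicate 1 of stiff gels with RGD to 0.03 without replicate 2 of stiff gels without RGD. RGD libraries wholly above or wholly below those without RGD at 12 h were impossible for a member. Each side holds soft and stiff libraries, which the rule keeps apart. The count of 0 was thus fixed, and the 1.08% and 0.901% of all tested transcripts are no background for it. The extremes lay at few counts: ENSRNOT00000083152.1 was fitted at 0.79 ± 0.61 and ENSRNOT00000054860.4 at -0.76 ± 0.56, both with an edgeR adjusted p of 1.00 and with 19 counts or fewer in every library at 12 h.

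At 48 h the members leaned toward lower levels with RGD, and none passed the test. By edgeR, 0 were called higher, where 0.0508% of all tested transcripts were, and 0 lower, where 0.00% were, with DESeq2 calling 1 higher and limma-voom 0. At an unadjusted p under 0.05, 38 members were lower, beside 8.20% of all tested transcripts, and 9 were higher, beside 6.92%. The fitted difference was below 0 for 104 of 154, beside 50.0% of all tested transcripts, with a median of -0.26 and quartiles of -0.55 and 0.16. The smallest adjusted p was 0.0742 by edgeR. Replicates of a group at 48 h differed by a median log2 value of 0.185 (soft with RGD) to 0.569 (stiff with RGD) over the members. In size, the RGD median of -0.26 lay within that range. Members that vary together in a library are not separate replicates, so the counts of members do not measure the spread between libraries.

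The lean toward lower levels with RGD kept its sign without any 1 of the 16 libraries, with a median between -0.40 (without replicate 1 of stiff gels with RGD) and -0.15 (without replicate 2 of that group, and also without replicate 1 of soft gels without RGD). Over those fits, the number of members lower at an unadjusted p under 0.05 shifted, as it did among all tested transcripts. Calls appeared in 4 of the fits. Without replicate 2 of soft gels without RGD, 2 members were called higher and 8 lower, where 21 and 86 of 8258 tested transcripts were. Without replicate 1 of stiff gels with RGD, 1 was called higher and 6 lower, where 18 and 56 of 8275 were. Without replicate 1 of soft gels with RGD, 2 were called higher and 4 lower, where 53 and 67 of 8256 were, and without replicate 2 of stiff gels without RGD 1 was called lower, where 38 of 8265 were. The calls thus went in both directions, among the members as among all transcripts. RGD libraries lay wholly below the others at 48 h for 9 members (background 2.49%) and wholly above for 4 (background 2.77%). The difference of the RGD effect between 48 h and 12 h had a median of -0.19 with 102 members below 0 (background 49.2%), and 0 members were called by edgeR, DESeq2 or limma-voom, beside 0.0127% of all tested transcripts called higher and 0.00% lower by edgeR. At an unadjusted p under 0.05, 8 members had the lower RGD effect at 48 h (background 2.70%) and 5 the higher (background 3.72%).

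The member with the lowest fitted RGD difference at 48 h was ENSRNOT00000045041.5. Without RGD it stood at 17.1 and 8.52 CPM in the soft and 13.3 and 6.15 CPM in the stiff libraries. With RGD it stood at 4.16 and 0.832 CPM in the soft and 5.89 and 3.65 CPM in the stiff libraries. Every library with RGD lay below every one without, and in each of the 4 groups replicate 1 was the higher. The fitted log2 fold change was -1.75 ± 0.44 (SE) with an edgeR adjusted p of 0.102. Over 23 alternative fits, which included each library left out in turn, that fold change ran from -2.51 to -1.36. Its RGD effect at 48 h minus that at 12 h was -1.45 ± 0.75 with an edgeR adjusted p of 0.786, the lowest of the 154.

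The highest fitted RGD difference came from 2 libraries. ENSRNOT00000007577.5 stood at 69.1 CPM in replicate 2 of soft gels and 112 CPM in replicate 2 of stiff gels, both with RGD at 48 h. The other libraries at 48 h held it between 3.55 and 14.5 CPM, replicate 1 of both groups with RGD included, at 3.78 and 11.3 CPM. The fitted value of 2.69 ± 0.98 (SE) had an edgeR adjusted p of 0.255, and replicates of a group thus differed by more than the groups. At 12 h its range was 36.2 to 48.6 CPM in the soft and 54.1 to 131 CPM in the stiff libraries, where both replicate 1 libraries were the high ones. Its RGD effect at 48 h minus that at 12 h was 2.70 ± 1.27 with an edgeR adjusted p of 0.786.

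The 4 members wholly above with RGD at 48 h, named after their values were seen, were ENSRNOT00000027944.6, ENSRNOT00000023872.4, ENSRNOT00000009555.7 and ENSRNOT00000067623.2. ENSRNOT00000027944.6, which had the smallest p of the 154, read 1.82 and 4.97 CPM in the soft and 2.82 and 3.76 CPM in the stiff libraries without RGD. With RGD it read 8.31 and 10.4 CPM in the soft and 9.82 and 11.7 CPM in the stiff libraries. Soft and stiff libraries overlapped at 48 h, and those without and with RGD did not, with means of 3.34 ± 1.34 and 10.1 ± 1.40 CPM (SD, n = 4) and a fitted difference of 1.52 ± 0.35 (SE, edgeR adjusted p 0.0742). At 12 h the means were 6.45 ± 2.89 without and 8.58 ± 5.17 CPM with RGD (SD, n = 4). The choice of members fixes an overlap of the RGD groups at 12 h, and these SDs include the difference between soft and stiff gels. ENSRNOT00000023872.4 is the most abundant of the 4, at 206, 328, 264 and 336 CPM without RGD, then 387, 434, 500.0 and 430 CPM with RGD at 48 h, soft gels first. The means of ENSRNOT00000009555.7 were 7.47 ± 2.35 without and 11.0 ± 1.09 CPM with RGD, and those of ENSRNOT00000067623.2 were 4.29 ± 1.06 and 8.04 ± 1.80 CPM (SD, n = 4).

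The change from 12 h to 48 h is a description, since the rule bounds it and fixes which libraries at 12 h are high, and since the change in each gel shares its 12 h libraries with the contrast that chose the members. In soft gels, edgeR called 61 members higher at 48 h and 12 lower, beside 13.9% and 14.6% of all tested transcripts. In stiff gels it called 8 higher and 34 lower, beside 9.85% and 9.46%. The medians were 0.56 in soft and -0.16 in stiff gels. With 1 library left out, the stiff median ran from -0.28 (without replicate 1 of stiff gels with RGD at 48 h) to -0.04 (without replicate 2 of stiff gels without RGD at 12 h), and the stiff calls from 4 to 11 higher and from 20 to 38 lower. The soft calls ran from 39 to 70 higher and from 6 to 12 lower. In soft gels the mean at 48 h reached or passed the stiff mean at 12 h for 37 members, stayed at or under the soft mean at 12 h for 38 and lay between for 79. In stiff gels the mean at 48 h reached or passed the stiff mean at 12 h for 55, fell to or under the soft mean at 12 h for 26 and lay between for 73. The stiff mean still exceeded the soft mean at 48 h for 112.

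The members were split in 2 sets by the sign of their fitted change over time, after values were seen. The choice of members and the split together fix the direction of these changes, so the values are a description only. The 93 fitted higher at 48 h had median changes of 0.97 in soft and 0.12 in stiff gels. The 61 fitted lower at 48 h had medians of -0.22 in soft and -0.88 in stiff gels, and 21 of them were fitted higher at 48 h in soft gels. For the 93, the mean log2(TMM-scaled CPM + 1) ran from 4.12 to 4.28 in soft and from 4.95 to 5.36 in stiff libraries at 12 h, without overlap, and from 4.83 to 5.57 in soft and from 4.89 to 5.57 in stiff libraries at 48 h, with nearly full overlap. For the 61 it ran from 3.46 to 3.55 in soft and from 4.27 to 4.61 in stiff libraries at 12 h, and from 3.12 to 3.35 in soft and from 3.29 to 3.73 in stiff libraries at 48 h. In a bulk library, a change in the share of cells that hold a transcript and a change of its level per cell cannot be told apart.

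**Figure D5:**
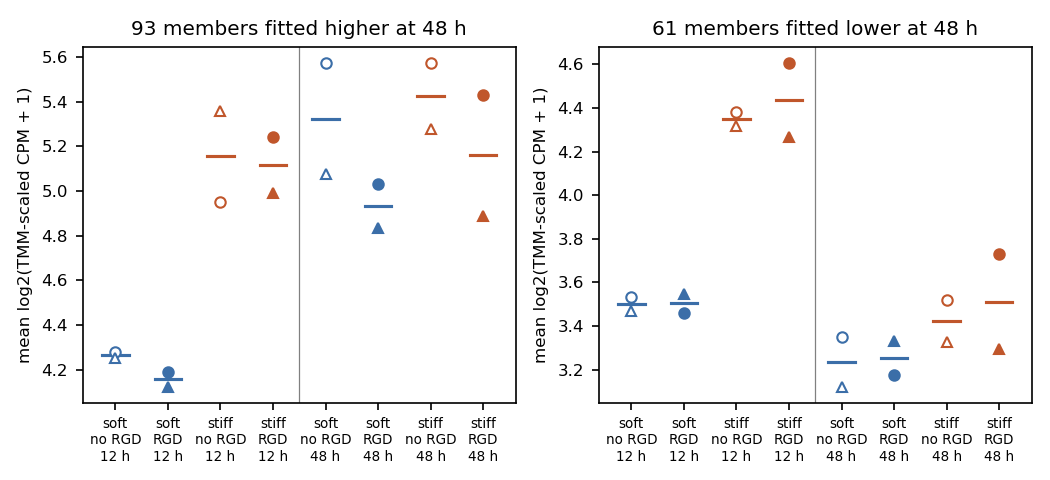
Mean log2(TMM-scaled CPM + 1) in each library of the 93 members fitted higher at 48 h (left) and the 61 fitted lower (right), with soft gels in blue and stiff gels in orange, open symbols without and filled symbols with RGD, circles for replicate 1 and triangles for replicate 2, and a bar at the mean of the 2 libraries of a group. On the left the soft libraries climb from at most 4.28 at 12 h to at least 4.83 at 48 h; on the right the stiff libraries drop from at least 4.27 to at most 3.73. The vertical axes do not start at 0.

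The differences at 48 h are given for each set, with no test between the sets. The median for stiff minus soft at 48 h was 0.14 over the 93, with 69 above 0, and 0.19 over the 61, with 45 above 0. Of all tested transcripts, 50.7% were above 0. Without replicate 1 of stiff gels with RGD these medians were -0.04 and 0.04, and without replicate 2 of that group 0.30 and 0.33. The median for RGD minus no RGD at 48 h was -0.35 over the 93, with 74 below 0, and 0.03 over the 61, with 30 below 0. Of all tested transcripts, 50.0% were below 0. Of the 38 members lower with RGD at an unadjusted p under 0.05, 34 were among the 93 and 4 among the 61, and of the 9 higher, 2 and 7. Of all tested transcripts, 8.20% were lower and 6.92% higher by that measure. These shares are not split by change over time, so nothing particular to either set is read from the counts. Leaving out each library in turn kept the RGD median of the 93 between -0.50 and -0.25, while that of the 61 ran from -0.19 to 0.18. The libraries of the 93 at 48 h stood at 5.57 and 5.08 in soft and 5.57 and 5.28 in stiff gels without RGD, and at 5.03 and 4.83 in soft and 5.43 and 4.89 in stiff gels with RGD. Replicate 1 was the higher in each of these groups, and the libraries without and with RGD overlapped in stiff gels and not in soft gels.

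The ends of the time range, which the rule capped, were ENSRNOT00000022400.5 and ENSRNOT00000030625.2. ENSRNOT00000022400.5 had soft libraries at 83.9, 66.4, 52.5 and 48.3 CPM at 12 h and at 266, 260, 295 and 183 CPM at 48 h, and stiff libraries at 105, 171, 145 and 99.7 CPM, then 237, 254, 207 and 184 CPM. Soft and stiff gels overlapped at 48 h, and the soft mean of 251 ± 48.1 CPM exceeded the stiff mean at 12 h of 130 ± 34.1 CPM (SD, n = 4). ENSRNOT00000030625.2 had soft libraries at 10.7, 10.3, 15.3 and 15.8 CPM and stiff libraries at 35.7, 33.2, 57.4 and 25.7 CPM at 12 h. At 48 h its soft libraries stood at 6.92, 6.39, 3.02 and 1.67 CPM and its stiff ones at 7.25, 6.49, 12.8 and 2.92 CPM. All 4 of its stiff libraries at 48 h lay under all of its stiff libraries at 12 h, and replicate 1 with RGD was the highest stiff library at both times.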

How the data were processed

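RNA of 16 libraries was analysed from whole-number counts per Ensembl transcript, deposited by the authors without normalization. The tools were HISAT2 2.1.0, HTSeq and FastQC with build rn6, per the submitters' processing notes. Which annotation release, counting mode, strand setting or molecular identifiers they used is not given in the sources used here. Each column was matched to a sample by its title.

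The rule used CPM by column total. For tests, transcripts passed edgeR's expression filter (minimum count 10, minimum total 15; 7876 kept), libraries were scaled by TMM (0.893 to 1.18), and all libraries entered a robust quasi-likelihood fit of 8 group means (edgeR 4.0.16, limma 3.58.1, R 4.3.3). P-values were adjusted by Benjamini-Hochberg over the 7876, with a threshold of 0.05. The SE of a fold change is its size over the square root of F, an approximation. The fit was tested on simulated data. Replicates of every group differed by more than sampling noise (chi-square per degree of freedom 2.64 to 15.0).

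The members and all lists were chosen with earlier results of these data known. Without symbols, the gene lists prepared for roles and cell types could not be applied. The rule for names took the 2 largest ratios at 12 h among members averaging 20 counts there, called members in each other comparison or, where there were none, the highest and lowest fitted change, and the extremes over time. Alternatives were limma-voom, DESeq2 1.42.0, RLE factors, the absence of a count filter, a minimum of 10 CPM in 2 libraries, a replicate block, fits of one time only, and each library left out.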

Additional observations from a re-analysis of the deposited data

How the results depend on the processing

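The number of members was 80 with TMM-scaled totals and 73 with a ratio minimum of 1.0, and 115 to 244 without each 12 h library in turn. Members called for stiff minus soft at 12 h, an alternative set chosen after seeing the data, were 21 with limma-voom (32 higher and 11 lower of 7876 tested). They were 81 with no filter on low counts (158 and 46 of 15864) and 105 with only the 12 h libraries (278 and 154 of 7345). With 1 library left out, the calls changed among the members and among all tested transcripts. For stiffness at 48 h, 4 were called higher with no filter (22 higher and 2 lower of 15864 tested) and 0 to 6 with 1 library left out (6 higher without replicate 1 of soft gels without RGD, beside 64 higher and 2 lower of 8269). The median at 48 h turned to -0.0293 without replicate 1 of stiff gels with RGD and was at most 0.308. For RGD at 48 h, DESeq2 called 1, which was higher (27 higher and 25 lower of 7876), no filter 22, of which 5 were higher and 17 lower (87 and 126 of 15864), and the fits with 1 library left out 0 to 10. Members with stiff wholly above soft at 48 h numbered 5 to 13 with 1 library left out, since fewer libraries have less room to overlap. There were 13 without soft replicate 1 without RGD, and 9 without soft replicate 2 with RGD or stiff replicate 1 without RGD. Without replicate 2 of either stiff group there were 8. Members wholly below numbered 1 to 2 (2 without either soft library with RGD), or 0 with TMM-scaled totals. The share over all tested transcripts is not given for these settings, so nothing is read from these counts. The causes were not tested.

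Whether replicate numbers pair the libraries is not known. Over 28 pairs of groups, deviations of all tested transcripts correlated between -0.22 and 0.19, and 5 were over 0.1. Such values do not show a pairing and cannot exclude it. Replicate 1 was the higher for most members in every group at 48 h, and an effect shared by replicate number was not tested. With the replicate block, 0 members were called for stiffness at 48 h, for RGD at either time and for both interactions. For stiffness at 12 h 45 were called, where 74 of 7876 tested transcripts were called higher and 21 lower. The medians were 0.158 for stiffness and -0.276 for RGD at 48 h. How depth bears on the 51 members that averaged under 10 CPM was not tested.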
